A study of Mus musculus with 6 samples.

Results

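The genes described here are those that carry a cell through mitosis and cytokinesis, measured in LSK cells of mice labelled Gfi1 knockout or wild type. LSK cells are sorted from bone marrow as cells without lineage markers that carry both Sca-1 and Kit, a fraction that holds the haematopoietic stem cells and the progenitors closest to them. The list holds 44 genes chosen by name, and a gene entered if a probe set of the array had that gene as its single symbol. This gave 42 genes with 77 probe sets, out of 12393 genes with 20380 such probe sets on the array. Ccnb1 and Espl1 had no such probe set and were not analysed here. Each gene is reported by its brightest probe set, the one with the highest mean over the 6 arrays, and its other probe sets were checked. For some genes this is of a less specific kind (names ending in _s_at, _x_at or _a_at) that can match several transcripts. These are Bub3, Pttg1 and Prc1 (_s_at), and Cdc20, Aurkb, Incenp, Kif2c, Kif22 and Tacc3 (_x_at). Those ending in _a_at are Cdc25b, Cdc25c, Birc5, Cenpa, Top2a, Hmmr, Kif20a, Ect2 and Racgap1.

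The samples were 3 Gfi1 knockout and 3 Gfi1 wild-type LSK preparations, numbered 5, 7 and 8 in each group, with 1 array each. All were sorted by flow cytometry, and 10 ng of RNA per sample went through 2 amplification rounds. The sources used here do not give the allele, strain, age or number of mice per sample, so p-values measure only the spread between these samples. Where 3 signals of a group are given, they are in the order of sample numbers 5, 7 and 8. Gfi1, a zinc finger transcriptional repressor needed for normal stem cell and neutrophil function, was not lower on the knockout arrays (1198 ± 523 against 654 ± 60.4 signal units, SD, n = 3 each; limma adjusted p = 0.148). Whether its probe set lies in the deleted part is not known, so the group is called knockout-labelled and every direction rests on the labels.

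Entry into mitosis is driven by the kinase CDK1 with A- and B-type cyclins. Spindle assembly, the checkpoint that waits for chromosome attachment, the anaphase-promoting complex (a ubiquitin ligase) and the contractile ring then act in turn. Transcripts of these genes accumulate late in the cell cycle, so in a bulk sample their level follows both the share of cells in that phase and the amount of RNA per cell, which cannot be told apart here. Haematopoietic stem cells are mostly quiescent, whereas the progenitors in the same sorted fraction cycle actively.

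Many of these genes are known to share a promoter arrangement, in which a CHR element (cell cycle genes homology region) near the start site is bound by the MuvB complexes and CCAAT boxes upstream bind NF-Y. RefSeq start sites of the GRCm38.p6 assembly gave promoter windows of 250 bases before to 50 after the start for 37 of the 44 genes, in 40 windows. The CHR letters TTTGAA, searched on both strands, were found in 26 of the 37 genes (70.3%) against 20.2% of 27025 genes with such a window. CCAAT on either strand was found in 30 of 37 (81.1%, against 41.1%), and both together in 24 (64.9%, against 7.97%). The less common CHR form TTTAAA was found in 8 (21.6%, against 14.9%). The combined CDE-CHR element, GCGG followed after any 4 bases by the TTTGAA already counted, was found in 2 of 37 genes (5.41%, against 0.0851%), Cdk1 and Cenpf.

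The promoters below belong to 5 genes whose values recur in what follows, Cdc20 and Plk1 with their highest signals on knockout-labelled arrays, and Cenpf, Kif23 and Prc1 with theirs on wild-type arrays for at least 1 probe set. Each runs from 130 bases before to 50 after the RefSeq start, and capitals mark TTTGAA and CCAAT on either strand (ATTGG where the box lies on the other strand). The 5 were picked by their values in these data, and none passed the test described below by its brightest probe set. Each sequence holds both elements.
Cdc20, chr4:118437294-118437473, minus strand: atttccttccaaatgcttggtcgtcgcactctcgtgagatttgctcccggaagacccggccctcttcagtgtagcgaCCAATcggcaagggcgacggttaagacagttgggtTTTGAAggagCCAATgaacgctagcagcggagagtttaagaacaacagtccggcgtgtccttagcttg
Plk1, chr7:122159305-122159484, plus strand: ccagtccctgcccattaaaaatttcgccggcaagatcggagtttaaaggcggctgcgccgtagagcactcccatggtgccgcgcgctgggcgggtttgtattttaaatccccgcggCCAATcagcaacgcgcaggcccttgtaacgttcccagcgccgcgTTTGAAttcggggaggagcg
Cenpf, chr1:189688037-189688216, minus strand: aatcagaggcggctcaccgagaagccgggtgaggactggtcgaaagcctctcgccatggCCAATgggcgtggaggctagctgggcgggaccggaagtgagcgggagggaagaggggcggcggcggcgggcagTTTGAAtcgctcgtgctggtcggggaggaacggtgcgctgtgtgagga
Kif23, chr9:61946750-61946929, minus strand: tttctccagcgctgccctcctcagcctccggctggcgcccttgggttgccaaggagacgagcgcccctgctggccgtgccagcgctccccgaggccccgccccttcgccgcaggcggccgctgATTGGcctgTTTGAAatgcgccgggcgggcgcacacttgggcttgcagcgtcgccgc
Prc1, chr7:80294321-80294500, plus strand: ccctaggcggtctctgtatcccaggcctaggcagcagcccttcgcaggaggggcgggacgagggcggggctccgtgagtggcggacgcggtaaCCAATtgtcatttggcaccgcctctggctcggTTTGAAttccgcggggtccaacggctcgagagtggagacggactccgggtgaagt

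The CHR letters begin 18 bases before the start in Cdc20, 5 before it in Prc1, at base 3 after it in Cenpf and Kif23, and at base 31 in Plk1. Over all windows, 26 of 38 TTTGAA matches lay within 50 bases of the start, in 23 of the 26 genes that had the element. Ect2, Bub3 and Prc1 had overlapping windows, so their shared sites were counted in each window. The 25 measured genes with TTTGAA had a median difference between the groups of 0.01 and 14 lay above 0. The 10 measured genes whose window lacked it had a median of 0.06 and 6 lay above 0. For TTTAAA the 7 measured genes with it had a median of 0.24 and 5 lay above 0, against 0.01 and 15 of the 28 without it. For CCAAT the medians were 0.07 over 28 genes and -0.02 over 7. These splits were not tested. A match is a description of the letters in this window and not a shown binding site.

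**Figure D1:**
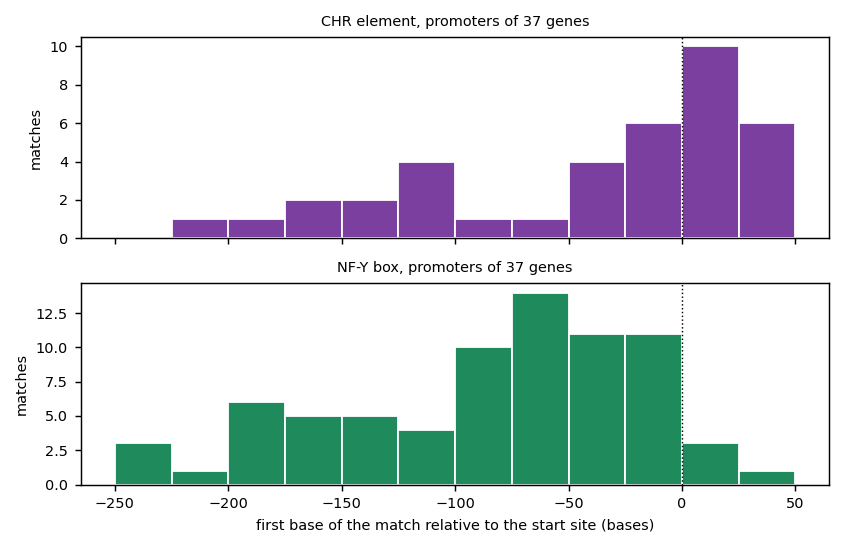
Positions of the CHR element (TTTGAA, upper panel) and the NF-Y box (CCAAT, lower panel) in the promoter windows of 37 mitosis genes, as the first base of each match relative to the RefSeq start site (bases, horizontal axis) and the number of matches in bins of 25 bases (vertical axis). CHR matches gather around the start site, 26 of 38 within 50 bases of it. Of 74 CCAAT matches 70 begin before it, where each window holds 250 bases before the start and 50 after. Sites shared by the overlapping windows of Ect2, Bub3 and Prc1 count in each window.

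All 42 genes were clearly measured. Each was brighter than the brightest Bacillus control probe set on all 6 arrays, and all 42 were among the 13575 probe sets tested. Mean signals over the 6 arrays ran from 381 for Cenpe, a kinetochore motor, to 22518 for Top2a, the topoisomerase that untangles sister chromatids, but levels of different probe sets cannot be set against each other. Median array signals lay between 285 and 335, and 67.0% to 74.4% of probe sets on an array exceeded its brightest Bacillus control.

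Transcripts of the mitotic machinery differed little between the groups. By limma on log2(signal + 16), with Benjamini-Hochberg adjustment over all probe sets tested, 0 of the 42 genes were higher and 0 were lower on the knockout-labelled arrays, where 1.44% and 2.19% of all probe sets passed in the same directions. At an unadjusted p under 0.05 there were 1 higher (2.38%) and 3 lower (7.14%), against 9.08% and 10.5% of all probe sets. Without limma's variance trend the counts of genes past the threshold were also 0 and 0, where 57 and 124 of all 13575 probe sets passed. A fit that pairs arrays by sample number gave 0 and 0 too, against 2.36% and 3.53% of all probe sets. Its lowest adjusted p, 0.0770, was for Plk1. No gene differed by 2-fold or more without overlap, against 0.744% higher and 1.60% lower among all probe sets. The 2 groups did not overlap for 4 genes that were higher and 4 that were lower, 9.52% each, against 11.9% and 12.1% of all probe sets.

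Differences between the groups (knockout-labelled minus wild type) ran from -0.42 for Cenpf to 0.55 for Plk1 on the log2(signal + 16) scale, a scale that understates changes of dim probe sets. Their median was 0.08, against -0.01 over all probe sets tested, and 26 of 42 (61.9%) lay above 0, against 48.9%. The median was -0.01 without wild-type array 7. The standard errors (SE) ran from 0.13 to 0.31, and 28 of the 42 differences were smaller than 0.3. For 41 genes the 95% interval of the difference, unadjusted for the number of genes, lay inside a 2-fold change in either direction. The exception was Kif20a, a kinesin of cytokinesis, with an interval from -0.20 to 1.15. Lack of a call therefore does not show equal levels, but for most of these genes a 2-fold change lay outside the interval.

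**Figure D2:**
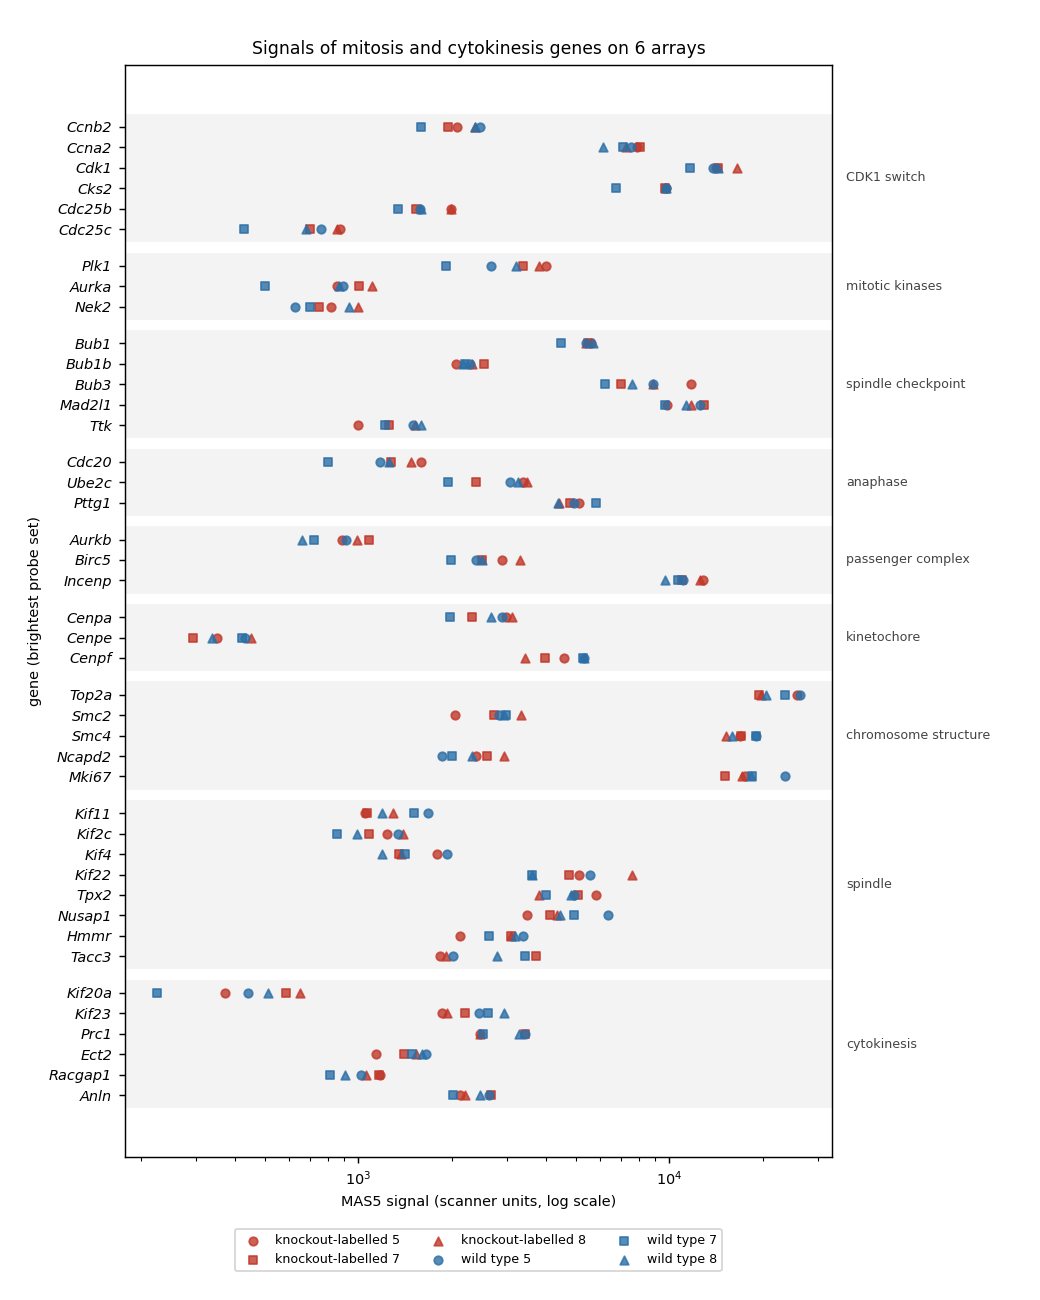
MAS5 signal of each of the 42 genes on each array (horizontal log axis, scanner units), by the brightest probe set, with genes in rows grouped by role; red marks knockout-labelled and blue wild-type arrays, and circles, squares and triangles mark sample numbers 5, 7 and 8. The groups mostly overlap, and the blue square of wild type 7 is the lowest point for 18 of the 42 genes.

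**Figure D3:**
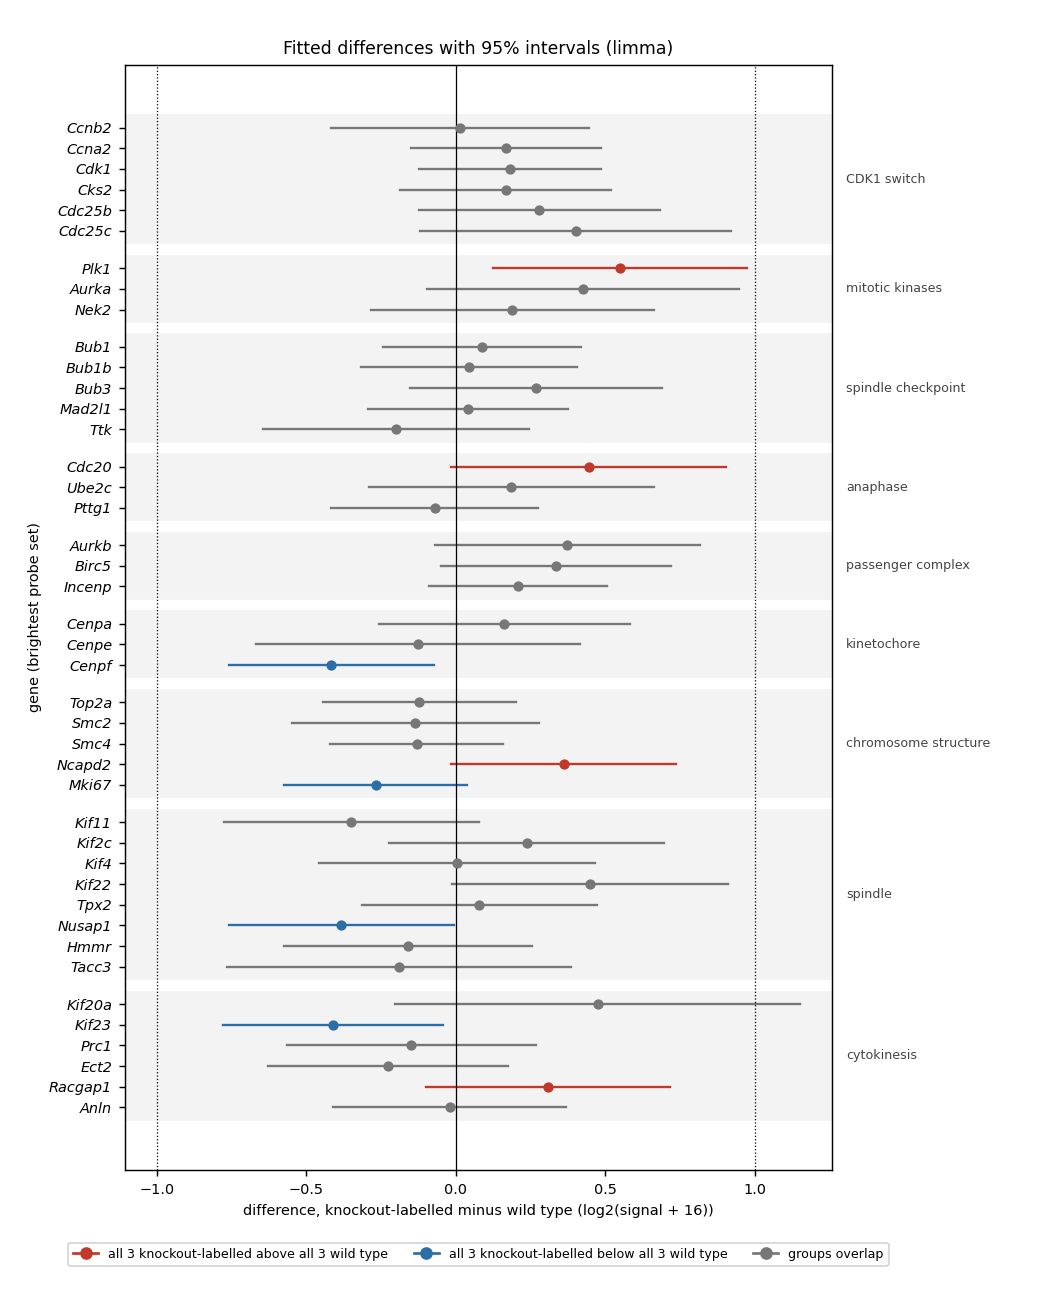
Fitted difference between knockout-labelled and wild-type arrays for each gene (log2(signal + 16), horizontal axis) with its 95% interval from limma (n = 3 per group), genes in rows grouped by role. Red marks the 4 genes with all knockout-labelled arrays above all wild-type arrays, blue the 4 with the reverse, and dotted lines a 2-fold change; 41 of 42 intervals lie between the dotted lines.

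The CDK1 switch and its regulators all lay slightly above 0. None of the 6 measured genes passed the test, and the median difference was 0.17. Cdk1, the kinase itself, had signals of 14154, 14331 and 16561 on the knockout-labelled arrays against 13862, 11639 and 14300 in wild type. The groups overlapped, and the difference was 0.18 ± 0.14 (SE; limma adjusted p = 0.531). Ccna2, cyclin A2, stood at 0.17 ± 0.15 and Ccnb2, a B-type cyclin, at 0.01 ± 0.20. Ccnb2 had the slightly lower mean signal on the knockout-labelled arrays (2130 ± 221 against 2140 ± 482, SD, n = 3 each), so its sign depends on the scale. Cks2, a small subunit that docks CDK1 to its substrates, was nearly constant at 9656 to 9757 on the knockout-labelled arrays and 6746 to 9776 on the wild-type arrays. Cdc25b and Cdc25c, the phosphatases that activate CDK1, stood at 0.28 ± 0.19 and 0.40 ± 0.24 (adjusted p = 0.452 and 0.395), and Cdc25c at 0.16 without wild-type array 7.

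Plk1 had the largest difference of the list. This polo-like kinase acts in centrosome maturation, chromosome attachment and cytokinesis. Its signals were 4003, 3397 and 3816 on the knockout-labelled arrays against 2672, 1919 and 3211 in wild type. All 3 knockout-labelled arrays lay above all 3 wild-type arrays, by 0.55 ± 0.20 with a 95% interval from 0.12 to 0.97, and the difference did not pass the threshold (adjusted p = 0.139). Aurka, the aurora kinase of the spindle poles, stood at 0.43 ± 0.24 (adjusted p = 0.365) and was lowest, at 500, on wild-type array 7, with 852 to 1109 on the other 5 arrays. Nek2, a centrosome kinase, stood at 0.19 ± 0.22.

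Genes of the spindle assembly checkpoint, which delays anaphase until chromosomes are attached, overlapped between the groups without exception. Bub1 (0.09 ± 0.15), Bub1b (0.04 ± 0.17) and Mad2l1 (0.04 ± 0.16) had differences smaller than their standard errors. Mad2l1, the inhibitor that the checkpoint loads onto Cdc20, had signals of 9871 to 12914 on knockout-labelled and 9666 to 12605 on wild-type arrays. Bub3 stood at 0.27 ± 0.20, with its highest signal, 11780, on knockout-labelled array 5, and at 0.076 without that array. Ttk, the kinase that starts checkpoint signalling, was the single member below 0 at -0.20 ± 0.21 (adjusted p = 0.659).

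Among genes of anaphase, Cdc20 stood apart from Ube2c and Pttg1 in having groups that did not overlap. Cdc20, the activator of the anaphase-promoting complex, had signals of 1595, 1270 and 1478 on the knockout-labelled arrays against 1173, 796 and 1257 in wild type. The lowest knockout-labelled array lay just above the highest wild-type array, and the difference was 0.44 ± 0.21 (adjusted p = 0.273). Its second probe set gave 0.56 ± 0.20 (adjusted p = 0.138), also without overlap. Ube2c, the ubiquitin-conjugating enzyme of the same complex, stood at 0.19 ± 0.22. Pttg1, securin, which holds separase inactive, stood at -0.07 ± 0.16.

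The chromosomal passenger complex corrects faulty attachments and later acts at the midzone. Its 3 measured genes lay above 0 and none passed. Aurkb, its kinase, stood at 0.37 ± 0.21, Birc5, survivin, at 0.34 ± 0.18 and Incenp, the scaffold, at 0.21 ± 0.14 (adjusted p = 0.347, 0.330 and 0.451). Birc5 had signals of 2902, 2493 and 3317 on the knockout-labelled arrays against 2395, 1987 and 2499 in wild type. Knockout-labelled array 7 and wild-type array 8 were nearly equal, which made the groups overlap.

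Kinetochore genes went both ways. Cenpf, a large kinetochore and nuclear matrix protein of late cell cycle, had the tightest wild-type group, at 5334, 5277 and 5314, against 4581, 3976 and 3445 on the knockout-labelled arrays. All 3 knockout-labelled arrays were lower, by a difference of -0.42 ± 0.16 with an interval from -0.76 to -0.07 that did not pass after adjustment (adjusted p = 0.165). Cenpe stood at -0.13 ± 0.25. Cenpa, the histone variant that marks the centromere, stood at 0.16 ± 0.20.

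Of the genes of chromosome structure, Mki67 and Ncapd2 had groups that did not overlap, in opposite directions. Mki67 encodes Ki-67, the proliferation marker that coats mitotic chromosomes. It had signals of 17516, 15162 and 17170 on the knockout-labelled arrays against 23499, 18523 and 18318 in wild type, a difference of -0.27 ± 0.14 (adjusted p = 0.324). Ncapd2, a subunit of condensin I, had 2383, 2599 and 2949 against 1854, 1994 and 2323, a difference of 0.36 ± 0.18 (adjusted p = 0.281). The condensin ATPases Smc2 and Smc4 and the topoisomerase Top2a stood at -0.14 ± 0.19, -0.13 ± 0.13 and -0.12 ± 0.15, and their groups overlapped. Condensin subunits thus lay on both sides of 0.

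The 8 genes of spindle motors and microtubule-binding proteins split evenly, 4 above and 4 below 0, and none passed. Nusap1, which bundles microtubules near chromosomes, had signals of 3490, 4123 and 4350 on the knockout-labelled arrays against 6333, 4948 and 4438 in wild type. The groups did not overlap, with a narrow gap at array 8, and the difference was -0.38 ± 0.18 (adjusted p = 0.247). Kif11, the motor that separates spindle poles, stood at -0.35 ± 0.20 (adjusted p = 0.363). Kif22, a chromosome arm motor, stood at 0.45 ± 0.21 (adjusted p = 0.269), with its highest signal, 7604, on knockout-labelled array 8. Kif2c, a microtubule depolymerase, stood at 0.24 ± 0.21, Tpx2, an activator of aurora A, at 0.08 ± 0.18 and Kif4, a chromokinesin, at 0.00 ± 0.22. Hmmr and Tacc3, both spindle-associated, stood at -0.16 ± 0.19 and -0.19 ± 0.27. Tacc3 varied more between arrays of a group, 1827 to 3732 on knockout-labelled arrays, than between the groups.

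Cytokinesis genes also lay on both sides. Kif23 and Racgap1 encode the 2 partners of centralspindlin, which bundles the midzone and recruits Ect2, and their brightest probe sets stood on opposite sides of 0 without overlap. Kif23 had signals of 1859, 2204 and 1931 on the knockout-labelled arrays against 2437, 2609 and 2944 in wild type, a difference of -0.41 ± 0.17 (adjusted p = 0.201). Racgap1 had 1173, 1163 and 1055 against 1023, 813 and 903, a difference of 0.31 ± 0.19 (adjusted p = 0.409). Ect2, the exchange factor that activates RhoA, stood at -0.23 ± 0.19, Prc1, the midzone crosslinker, at -0.15 ± 0.19, and Anln, anillin of the contractile ring, at -0.02 ± 0.18. Kif20a had the widest spread, from 225 on wild-type array 7 to 651 on knockout-labelled array 8, and stood at 0.47 ± 0.31 (adjusted p = 0.447).

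A second, dimmer probe set of Kif23 was the single one of the 70 tested probe sets of these genes that passed the threshold, 1.43% of them, against 2.19% of all probe sets tested that passed as lower. The count is thus no higher than the background, and the values describe this probe set alone. Its signals were 192, 174 and 189 on the knockout-labelled arrays against 407, 542 and 678 in wild type. The brightest Bacillus control read 154, 158 and 100 on the same knockout-labelled arrays, so arrays 5 and 7 lay close above it. This probe set fell by 1.45 ± 0.27 on the log2 scale (limma adjusted p = 0.0104), with means of 185 against 542. The adjusted p was 0.0588 without wild-type array 7 and 0.0496 without the brightness filter. Under a stricter brightness filter the probe set was too dim to be tested. The dimmest Kif23 probe set was too dim to be tested and had 64.6 to 193 on knockout-labelled and 119 to 227 on wild-type arrays. The log2 ratio of the second to the brightest Kif23 probe set was -3.32 ± 0.20 on knockout-labelled and -2.29 ± 0.23 on wild-type arrays (SD, n = 3 each). All 3 arrays of one group lay below all 3 of the other (exact two-sided permutation p = 0.1, the smallest that 3 against 3 arrays can give). The single call among these probe sets did not extend to the brighter probe set of the same gene.

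Prc1 showed the same kind of disagreement without a call. Both its tested probe sets are of the less specific kind. The brightest overlapped between the groups. The second had signals of 967, 1026 and 1012 on the knockout-labelled arrays against 1646, 1322 and 2076 in wild type, with no overlap and a difference of -0.71 ± 0.20 (adjusted p = 0.0702). The log2 ratio of the second to the first was -1.44 ± 0.25 against -0.88 ± 0.20 (SD, n = 3 each), again without overlap (exact two-sided permutation p = 0.1). Both ratios were computed after the values of these probe sets had been seen.

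Of the 19 genes with 2 or more tested probe sets, 14 had differences of 1 sign over all of them and 5 had mixed signs. The gap between a gene's highest and lowest difference had a median of 0.19 and ran from 0.04 for Racgap1 to 1.04 for Kif23. Ccna2 had a second probe set at 0.48 ± 0.18 without overlap (4155, 4035 and 4032 against 3094, 2278 and 3526; adjusted p = 0.162). All 3 probe sets of Kif11 lay below 0, at -0.35, -0.55 and -0.44, and all 4 of Kif2c above 0, between 0.24 and 0.30. The 5 genes of mixed sign were Cks2, Smc4, Kif22, Tpx2 and Tacc3, and none of their probe sets passed. For Kif22 the brightest probe set stood at 0.45 and the second at -0.04 ± 0.25, both of the less specific kind. Its dimmest tested probe set, not of that kind, stood at 0.27 ± 0.24.

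**Figure D4:**
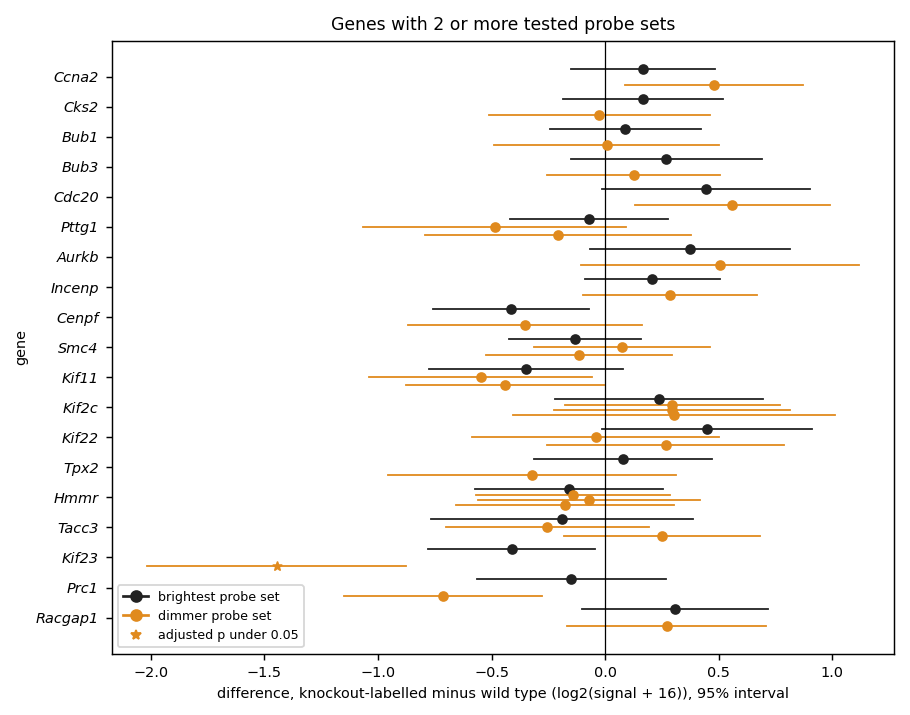
Differences between knockout-labelled and wild-type arrays (log2(signal + 16), horizontal axis) with 95% intervals from limma (n = 3 per group) for every tested probe set of the 19 genes, in rows, that had 2 or more; black marks the brightest and orange dimmer probe sets, and the star an adjusted p under 0.05. The dimmer Kif23 probe set, at -1.45, is the single star and lies apart from the brighter one at -0.41.

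Single arrays also differed over these genes as a set. Wild-type array 7 was the lowest of the 6 arrays for 18 of the 42 genes (42.9%), where it was lowest for 19.3% of all probe sets tested. The median deviation of the 42 genes from their own means over 6 arrays was -0.22 on that array and between -0.03 and 0.10 on the other 5. Knockout-labelled array 8 was highest for 12 genes and had the highest median, 0.10, followed closely by wild-type array 5 at 0.10. The medians of the other wild-type arrays thus lay within the range of the knockout-labelled ones. Of the 14 genes with a difference of at least 0.3 in size, 7 moved by over 1.5 times when 1 array was left out. Without wild-type array 7, Plk1 stood at 0.35 (limma adjusted p = 0.434), Cdc20 at 0.24 (0.663), Aurka at 0.16 (0.816), Cdc25c at 0.16 (0.824) and Kif20a at 0.13 (0.893), while Cenpf stood at -0.42 (0.326). Kif22 stood at 0.24 (0.654) without knockout-labelled array 8, and Nusap1 at -0.24 (0.523) without wild-type array 5. Of the 28 smaller differences, 26 moved by that much or changed sign.

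**Figure D5:**
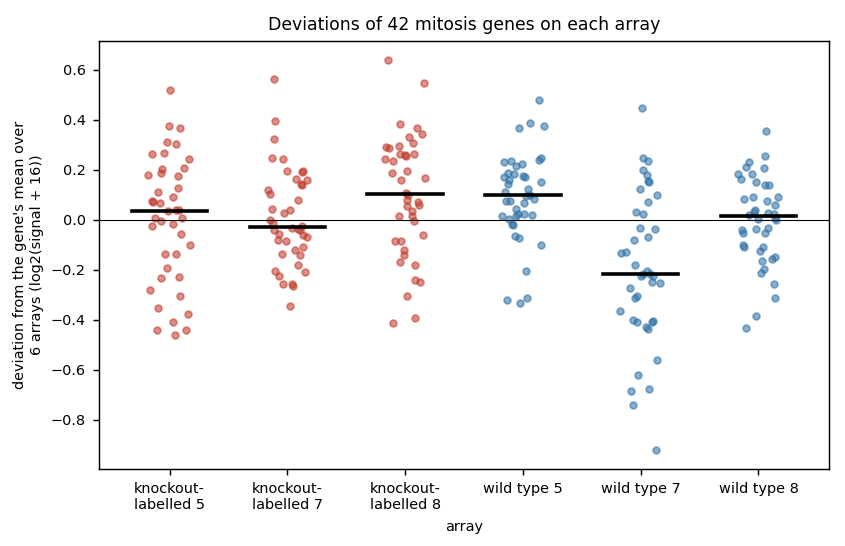
Deviation of each of the 42 genes from its own mean over the 6 arrays (log2(signal + 16), vertical axis) on each array (horizontal axis); each point is a gene and each bar the median of an array, with knockout-labelled arrays in red and wild-type arrays in blue. The median of wild type 7 is -0.22, and those of the other 5 arrays lie between -0.03 and 0.10.

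Arrays of the same sample number were also compared. The knockout-labelled array was the higher of the pair for 17 genes at number 5, 30 at number 7 and 27 at number 8 (40.5%, 71.4% and 64.3%), against 50.2%, 52.1% and 45.3% of all probe sets. The median pair differences were -0.09, 0.23 and 0.11, against 0.00, 0.02 and -0.05 over all probe sets. The genes thus lay on the higher side in pairs 7 and 8 and on the lower side in pair 5. Pair 7 holds wild-type array 7, lowest for 42.9% of the genes, against 19.3% of all probe sets. Pair 8 holds knockout-labelled array 8, highest for 28.6%, against 13.9%. The part of single arrays in the pair differences was not tested. 14 genes (33.3%) were higher in all 3 pairs, against 21.8% of all probe sets, among them Cdk1, Ccna2, Plk1, Cdc20, Birc5 and Ncapd2. 7 genes (16.7%, against 22.8%) were lower in all 3 pairs, namely Cenpf, Top2a, Smc4, Mki67, Nusap1, Kif23 and Ect2.

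Further genes of the same machinery also held no call in the unpaired fit. They came from lists of other kinetochore, anaphase-promoting complex, cohesin and condensin, spindle, CDK1-regulating, abscission and late cell cycle transcription genes. Of 112 tested, 0 were higher and 0 lower by limma (6 and 10 at an unadjusted p under 0.05, or 5.36% and 8.93%, against 9.08% and 10.5% of all probe sets). Above 0 lay 49 (43.8%, against 48.9%), and the median was -0.05. With the sample number as a block 2 were higher and 1 lower, 1.79% and 0.893%, against 2.36% and 3.53% of all probe sets in that fit. These were Trip13, an ATPase that disassembles checkpoint complexes, at 0.55 ± 0.18 (adjusted p = 0.103, blocked 0.0308), Anapc15, a subunit of the anaphase-promoting complex, at 0.68 ± 0.19 (0.0623, blocked 0.0463), and Rock1, a kinase that activates myosin in the contractile ring, at -0.67 ± 0.19 (0.0672, blocked 0.0437). Without wild-type array 8 there were 2 higher and 3 lower, Kpna2 (0.72) and Arpp19 (0.70) against Nipbl (-0.89), Rock1 (-0.79) and Aspm (-0.78), where 1.96% and 2.08% of all probe sets passed in those directions. The cohesin and condensin list had the lowest median, -0.29 over 12 genes, with Nipbl, the cohesin loader, at -0.74 ± 0.20 (adjusted p = 0.0667) and Ncapg, a condensin subunit, at -0.43 ± 0.19 (0.213).

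None of the other lists held a call in the fit without the block either. Among 23 kinetochore genes the median was 0.11, and Cenpc1 stood at -0.66 ± 0.23 (adjusted p = 0.138). Among 14 genes of the anaphase-promoting complex it was 0.04, with Anapc16 at -0.36 ± 0.20 (0.347). Spindle and centrosome genes had a median of -0.13 over 24, with Aspm, a spindle pole protein, at -0.62 ± 0.19 (0.0973) and Kpna2, an importin, at 0.55 ± 0.17 (0.0979). Regulators of CDK1 stood at 0.01 over 12, with Arpp19, an inhibitor of the phosphatase that opposes CDK1, at 0.50 ± 0.19 (0.163) and Pkmyt1, an inhibitory kinase of CDK1, at 0.63 ± 0.36 (0.360). Abscission genes stood at -0.08 over 11, with Rhoa at -0.24 ± 0.14 (0.369). Transcription factors of the late cell cycle stood at -0.13 over 17, with Rbl2, the p130 protein of the repressive DREAM complex, at -0.55 ± 0.20 (0.136) and Nfyb, a subunit of NF-Y, at -0.44 ± 0.18 (0.187).

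DNA replication genes, which act earlier in the cycle than mitosis, are set beside these. Of 36 tested by their brightest probe sets, 0 passed by limma in either direction (11 and 0 respectively when the p was left unadjusted). These were 30.6% and 0%, against 9.08% and 10.5% of all probe sets. Above 0 lay 30 (83.3%, against 48.9%), and the median was 0.23, against 0.08 for the mitosis genes and -0.01 over all probe sets. With the sample number as a block 1 passed, Lig1, a DNA ligase, at 0.47 (adjusted p = 0.124, blocked 0.0424), and without wild-type array 8 1 passed, Cdc6, a loader of the replicative helicase, at 0.85 (0.0478). In the same 2 settings 2.36% and 1.96% of all probe sets passed as higher. Rrm2, a subunit of ribonucleotide reductase, stood at 0.13 ± 0.18 by its brightest probe set (adjusted p = 0.752), which is one of the less specific kind (names ending in _s_at, _x_at or _a_at) that can match several transcripts. Its second probe set rose by 1.28 ± 0.24 (limma adjusted p = 0.0129), with signals of 1668, 1703 and 1411 against 764, 431 and 819, and it stands for the gene when less specific probe sets are left out (0.00964, where 1.43% of all probe sets passed as higher and 2.55% as lower). Its dimmest tested probe set stood at 0.48 ± 0.27 (0.349). The difference between the 2 lists was not tested.

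Marker lists of other cells held calls between the same groups, where 1.44% of all probe sets passed as higher and 2.19% as lower. Of 9 tested neutrophil genes 5 were lower and 1 higher on the knockout-labelled arrays, and the summed signal of the 11 measured ran from 7402 to 14762 against 20747 to 42031. The 5 lower were Ngp, Camp, Ltf, S100a9 and S100a8, and the 1 higher was Mmp8, at 2.21. Of 9 monocyte genes 4 were higher and 0 lower (18094 to 23574 against 10583 to 14794 summed over 10), and of 8 erythroid genes 1 was lower (13565 to 14210 against 23223 to 37917 summed over 9). This was Car2, with 3278 to 4924 against 12329 to 17042, and the other tested erythroid genes overlapped between the groups. Ermap had 10075 on wild-type array 8, against 1842 and 2307 on wild-type arrays 5 and 7. B-cell and plasma cell markers had 0 calls among 7 tested (14824 to 25908 against 15523 to 24565 summed over 10). Most of those sums was Jchain, with 12273 to 22783 against 11748 to 20234, and 6 of the 7 lay below 0. Among these 6, Blk stood at -0.88 (limma adjusted p = 0.132) and Sdc1 at -0.87 (0.180, blocked 0.0444). Megakaryocyte markers had 0 calls among 6 (3837 to 5908 against 3413 to 5354 summed over 8). T- and NK-cell markers had 1 lower among 4 (4537 to 4732 against 3897 to 4351 summed over 11), and mast cell markers 1 higher among 5 (8321 to 10947 against 5025 to 7523 summed over 9). Genes at or below the brightest Bacillus control on all 6 arrays numbered 1 of the B-cell and plasma cell list, 2 of the T- and NK-cell list, 1 of the mast cell list and 0 of the others. Of 6 sorting and stem cell surface genes, Kit fell by 0.71 ± 0.17 (limma adjusted p = 0.0381) and Flt3 by 1.19 (0.00515), all 6 were above that control on every array, and Ly6a, which encodes Sca-1, was not analysed here. Whether these marker differences reflect other cells or other levels per cell, and their part in the mitosis values, was not tested.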

How the data were processed

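The values were the authors' deposited intensity values, 1 linear MAS5 signal per probe set and array, per the submitters' processing notes, which name no version. Each array had already been scaled to a common trimmed mean. The 64 control probe sets were left out, which left 22626. No normalization was added. Signals were taken as log2(signal + 16), and the brightest 60% by mean log2 value (13575) were tested with limma 3.58.1 in R 4.3.3 (lmFit, eBayes with trend, two-sided, Benjamini-Hochberg adjustment over all 13575, threshold 0.05), a procedure tested on simulated data. Probe sets were named from the platform annotation, which can be old. The number of arrays limits the precision.

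Deviations of same-numbered arrays correlated at 0.159, 0.168 and 0.238, and of differently numbered arrays between -0.134 and -0.0307. Deviations were taken from each group's own mean, so the negative values follow from the positive ones and are no separate evidence. On the same-numbered values the sample numbers were taken to pair the samples, and a fit with the number as a block was run as an alternative. That pairing was thus chosen on the data to which the blocked fit was applied. Standard errors, intervals and adjusted p of the main fit ignore this pairing. Every mitosis gene had a lower adjusted p in the blocked fit, for instance Cdk1 at 0.362 against 0.531 and Bub3 at 0.218 against 0.497. The other alternatives were pseudocounts of 1 and 64, other brightness filters, 3 normalizations, eBayes without trend, other choices of probe sets, and each array left out. The genes and lists were chosen with earlier results of these data known. Named genes were all 42 measured genes, their other probe sets that passed, and of each further list of the mitotic machinery the genes that passed or the 2 with the smallest p. Other probe sets, the genes called only under an alternative, and genes of the marker lists were named after their values were seen.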

Additional observations from a re-analysis of the deposited data

How the results depend on the processing

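The counts of mitosis genes past the threshold, and of those at least 2-fold apart without overlap, were 0 in both directions under all 17 alternatives, the sample-number block included. The lowest adjusted p of a brightest probe set was 0.0643. Without the less specific probe sets, 31 of the genes were tested. Their median difference ran from -0.01 (without wild type 7) to 0.14 (median centring), and from -0.01 to 0.13 with 1 array left out. Of 701 gene values under alternatives, 673 kept sign and side of the threshold and 28, from 16 genes whose difference was at most 0.27 in size, changed sign without a call. These were Anln at 0.035 with median centring, Ccnb2 at -0.0055 and Kif4 at -0.0033 with cyclic loess, and Bub3 at -0.17, Top2a at 0.025 and Tpx2 at -0.12 with the mean over probe sets. With 1 array left out, values ran for Smc2 from -0.30 to 0.051, Kif4 from -0.15 to 0.19, Tpx2 from -0.054 to 0.25, Hmmr from -0.27 to 0.021, Anln from -0.13 to 0.060, Bub1b from -0.028 to 0.12, Mad2l1 from -0.062 to 0.15, Cenpe from -0.29 to 0.014, Ccnb2 from -0.19 to 0.13, Cks2 from -0.010 to 0.26, Bub1 from -0.013 to 0.16, Ube2c from -0.048 to 0.36, Pttg1 from -0.17 to 0.034 and Cenpa from -0.0015 to 0.29.

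Over all probe sets, 196 higher and 297 lower calls became 69 and 119 without the brightness filter, 57 and 124 with eBayes without trend and 320 and 479 with the sample-number block. The lower calls became 193 with median centring and the higher ones 127 without the less specific probe sets. With 1 array left out they ran from 34 to 266 and from 90 to 282. The further mitosis genes had 2 higher and 1 lower call with the block, 1 lower with the mean over probe sets, and 0 to 2 higher and 0 to 3 lower with 1 array left out. Replication genes had 1 higher call with the block, 1 without the less specific probe sets, and 0 to 1 with 1 array left out. The dimmer Kif23 probe set lost its call without wild type 7 (-1.43, adjusted p = 0.0588) and was too dim to be tested under the stricter brightness filter. The causes were not tested.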
